A study of Zea mays with 12 samples.

Results

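Ribosome-protected fragments (RPFs) were compared with mRNA in untreated maize roots, gene by gene, to describe how heavily each mRNA was occupied by ribosomes before any stress was applied. The comparison used the 4 libraries of the 0 hr time point out of 12 libraries in the series. They were 2 ribo-seq libraries and 2 RNAseq libraries, 1 of each from each of 2 lysates, paired by the replicate number in the sample labels. The lysates, called lysate 1 and lysate 2 here, came from roots of B73 inbred seedlings and were biological duplicates. The labels give an age of 7 days and the methods an older one. The labels list the 0 hr roots with the roots given 5 µg/ml tunicamycin (TM), an inhibitor of N-glycosylation that causes stress in the endoplasmic reticulum (ER), for 6 or 12 hr, and mock-treated roots were not analysed here. Of 39498 genes in the deposited table of reads on coding sequences, 31776 had at least 1 count at 0 hr. The test covered 17057 genes (43.2%), those averaging 5 or more CPM in the 4 libraries. CPM is the count of a gene per 1000000 counts of its library.

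In ribo-seq, RNase removes the RNA that is not covered by ribosomes, and the short fragments that remain are sequenced, so their number on a coding sequence rises with the number of ribosomes on it. RNAseq of the same lysate gives the amount of the mRNA. The ratio of the 2 CPM values, often called translation efficiency, is the density of ribosomes along the coding sequence relative to the average of the sample. The length of the coding sequence cancels in the ratio, since both kinds of reads were counted on it, but was not divided out of the levels. A ratio of 1 is not an absolute density, and a change in all mRNAs together would not appear in it. Ribosomes that have stalled also leave fragments, so the ratio is not a rate of protein synthesis.

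The libraries held 3272099 and 5832061 RPF counts, and 2019128 and 5285471 RNA counts, in lysates 1 and 2. The lysate 1 RNAseq library was the shallowest. RPFs were found on 26684 and 27756 genes, and RNA reads on 27356 and 28714 genes. Both kinds of reads were found for 27699 genes, RPFs alone for 1484 genes with at most 116 counts, and RNA reads alone for 2593 genes with at most 232 counts. Shares of library counts given below had 95% Wilson intervals no wider than 0.053 percentage points on either side for the top 10 genes, the top 100 genes and the GRMZM genes, which cover counting error only. The files do not pair gene identifiers with names, and none of the identifiers was found in the reference gene table used here. The tissue label could therefore not be checked against marker genes, and no pathway lists could be formed. Names are used for 7 loci whose complete identifier the paper prints. Other genes of the paper, among them PDI-1, whose printed identifier is a digit short, were not analysed here.

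Most mRNAs carried RPFs in rough proportion to their abundance, and a minority carried far fewer. The RPF to RNA ratio had a median of -0.04 on the log2 scale in lysate 1 and -0.09 in lysate 2, with 0.5 counts added to each count. The middle 50% of genes (25th to 75th percentile) spanned 2.42-fold in lysate 1 and 2.33-fold in lysate 2. From the 5th to the 95th percentile the ratio spanned 11.6-fold and 9.52-fold. The low side was the longer one in both lysates. The 5th percentile lay 2.14 and 2.04 log2 units under the median, and the 95th percentile lay 1.39 and 1.22 units over it. The SD across genes was 1.21 and 1.11 log2 units, and counting error, computed from the reads behind each ratio, made up 9.29% and 5.82% of the variance.

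**Figure D1:**
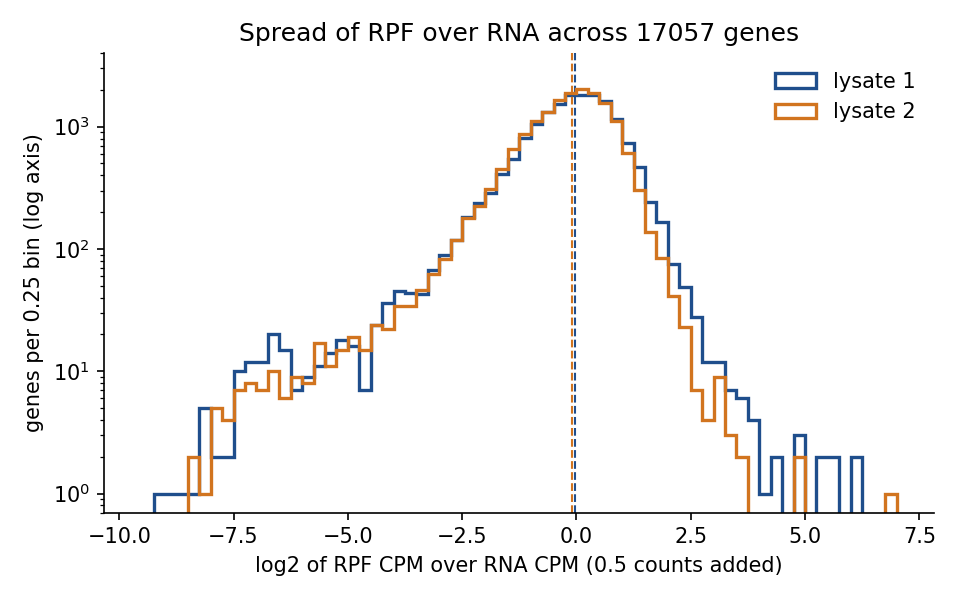
Number of genes (log axis) by log2 of RPF CPM over RNA CPM in bins of 0.25, for the 17057 genes tested, with 1 outline for each untreated lysate and dashed lines at the medians of -0.04 and -0.09. Both outlines have a long tail of genes with few RPFs for their RNA and a short tail on the other side.

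In both lysates together, 622 genes had a ratio above 2 and 2038 genes had a ratio below its inverse. Beyond 4-fold the counts were 25 above and 595 below, and beyond 16-fold they were 1 above and 142 below. The filter takes part in these counts, because a gene could be tested on its RNA alone. At least 5 CPM of RPFs and of RNA were present for 15009 genes, while 1643 genes passed through RNA alone and 405 through RPFs alone. Among the 15009 genes, 505 lay above 2-fold and 1054 below it in both lysates. Beyond 4-fold, 9 genes lay above and 147 below, so the low side remained the longer one among genes well measured in both kinds of library.

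RPFs were also spread over a wider range of levels than RNA. On the log2 CPM scale, the SD across genes was 1.87 and 1.96 for RPFs, and 1.56 and 1.61 for RNA. From the 5th to the 95th percentile, RPF levels spanned 58.4-fold and 75.3-fold, and RNA levels spanned 33.2-fold and 33.5-fold. At the very top the order was the other way round. The 10 genes with the most counts held 2.98% and 3.05% of the RPFs, and 7.12% and 5.64% of the RNA reads. The top 100 genes held 13.2% and 13.3% of the RPFs, and 18.0% and 16.1% of the RNA reads. The top 1000 genes held nearly equal parts, 43.1% and 43.7% of the RPFs, and 43.0% and 42.5% of the RNA reads.

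The genes at the top of the 2 kinds of library were only partly the same. By mean CPM, 3 genes were among the 10 highest for both RPFs and RNA, and 55 were among the 100 highest for both. The gene with the most RNA reads had 280 and 398 RPF counts, against 51109 and 86554 RNA counts. Its ratio of RPF CPM to RNA CPM was 0.00339 and 0.00417, and it ranked 3040th by RPFs. The gene with the most RPFs had 14224 and 36062 RPF counts, against 6061 and 25688 RNA counts, a ratio of 1.45 and 1.27. Of the 100 genes with the most RNA, 23 had a ratio more than 4-fold below 1 in both lysates, against 3.49% of all genes tested. A ratio above 1 in both lysates was found for 36 of them, about the share among all genes tested (6116 of 17057). RNA is also the denominator of the ratio, so this choice of genes favors low ratios.

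**Figure D2:**
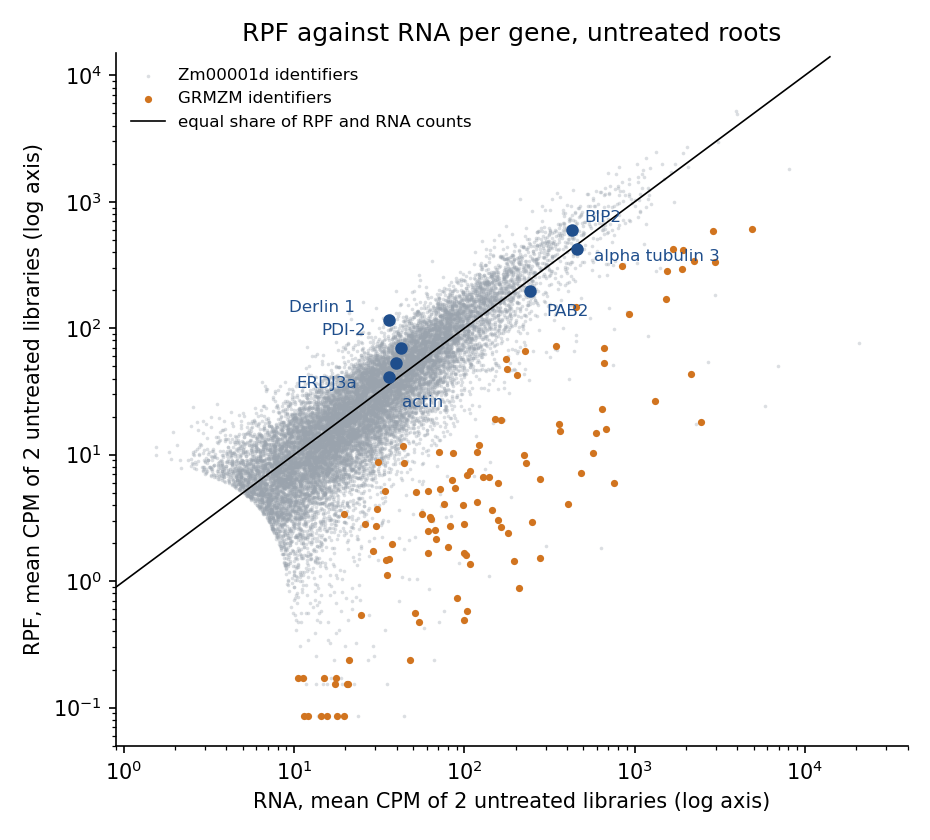
Mean RPF CPM (vertical) against mean RNA CPM (horizontal) of the 2 untreated libraries of each kind, on log axes, with 1 point per tested gene. The 14 genes without an RPF count and the 1 gene without an RNA count are not drawn. Orange points are genes with GRMZM identifiers, blue points are the 7 loci named by the study, and the line marks equal CPM. Most genes lie along the line, and the orange points lie below it.

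RPF levels were closely repeated between the lysates. Across the 17057 genes, log2 CPM of the 2 ribo-seq libraries had a Pearson correlation of 0.936, and that of the 2 RNAseq libraries 0.889. RPFs and RNA of the same lysate had a correlation of 0.766 in lysate 1 and 0.822 in lysate 2. RPFs of lysate 1 with RNA of lysate 2 gave 0.804, and RPFs of lysate 2 with the shallow RNAseq library of lysate 1 gave 0.721. These are descriptions across genes, which are not independent replicates, and the points share library depth.

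The ratio itself was repeated less closely than the levels, and best for abundant genes. Its Pearson correlation between the lysates was 0.77 and its Spearman correlation 0.716 over 17057 genes. The ratios of a gene in the 2 lysates fell on the same side of 1 for 77.6% of genes and within 2-fold of each other for 83.8%. Their difference had an SD of 0.79 log2 units, against 0.46 for counting error alone. For the 3600 genes with a mean of 5 to 10 CPM the correlation was 0.656, and for the 805 genes with at least 200 CPM it was 0.969. The difference between lysates had an SD of 1.22 log2 units in the first of these sets and 0.32 in the second. When RPFs were set against the RNA of the other lysate, the correlation over all 17057 genes was 0.547. RPF and RNA levels differed between the lysates in the same direction, with a correlation of 0.394 between the RPF differences and the RNA differences across genes.

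**Figure D3:**
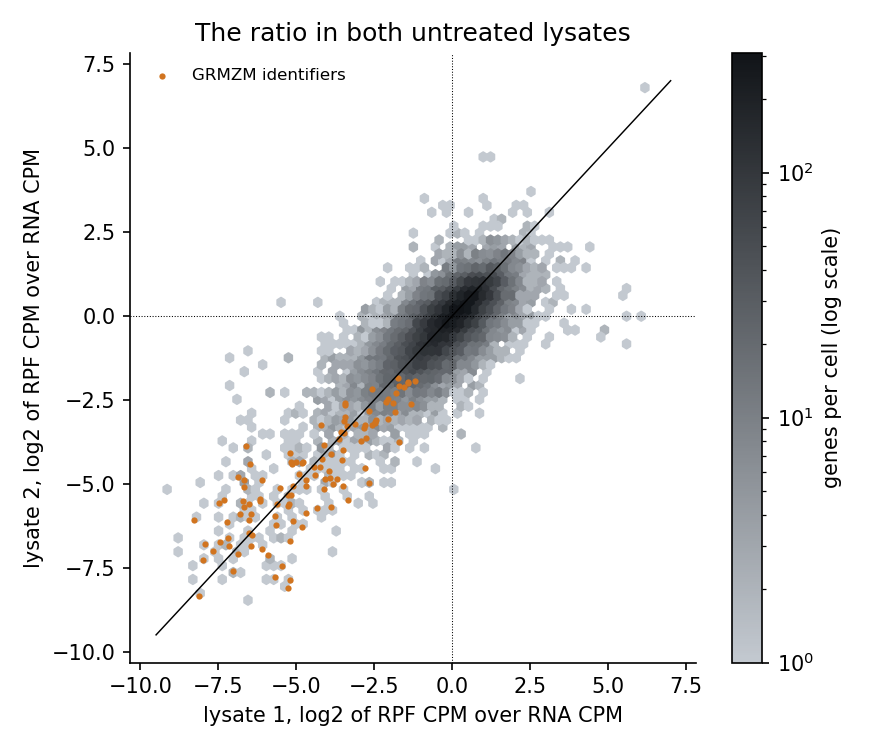
Log2 of RPF CPM over RNA CPM in lysate 2 (vertical) against lysate 1 (horizontal) for the 17057 genes tested, with 0.5 counts added. The grey shade gives the number of genes per cell on a log scale, orange points are genes with GRMZM identifiers, and the solid line marks equal ratios. Genes far below 1 in lysate 1 are mostly far below 1 in lysate 2, with a correlation of 0.77 over all genes.

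The median ratio was higher for abundant mRNAs than for rare ones, by less than 2-fold from end to end. To keep the counting error of a library out of both axes, genes were chosen and sorted into deciles (10 groups of equal size) by the RNA CPM of 1 lysate, with at least 5 CPM there, and the ratio was read in the other lysate. This choice of genes was added after the data were seen. In lysate 1 the median log2 ratio was -0.42 in the lowest decile, -0.16 in the fifth and 0.28 in the top decile, where RNA of lysate 2 exceeded 110 CPM. Lysate 2 gave -0.57, -0.16 and 0.06 in those deciles. The medians climbed at every step in lysate 1 and levelled off in the upper 2 deciles in lysate 2. The spread narrowed from low to high abundance on the low side, as the 5th percentile moved from -3.87 in the lowest decile to -1.43 in the ninth in lysate 1. In the top decile it was lower again, at -1.89 in lysate 1 and -2.50 in lysate 2.

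**Figure D4:**
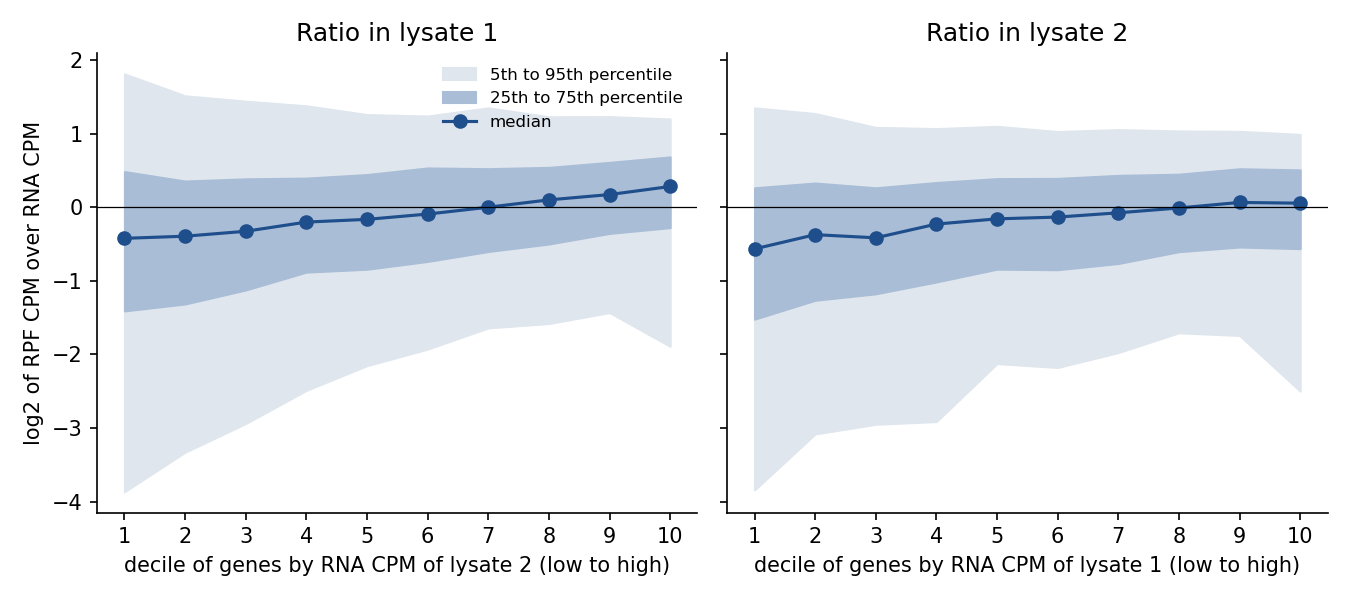
Log2 of RPF CPM over RNA CPM in lysate 1 (left) and lysate 2 (right) by decile of genes, from low to high RNA CPM of the other lysate. Points and lines are medians, the dark band is the 25th to 75th percentile and the light band the 5th to 95th. The median climbs from -0.42 to 0.28 in lysate 1 and from -0.57 to 0.06 in lysate 2, and the light band dips again in the top decile.

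Over all genes tested, sorted in the same way, the lowest decile did not have the lowest median. It had -0.13 in lysate 1 and 0.04 in lysate 2, against 0.28 and 0.06 in the top decile, so that the ends of lysate 2 hardly differed. A gene with little RNA entered this set only if it had RPFs. From the third decile, with -0.29 and -0.33, to the top the difference was 0.48 ± 0.13 log2 units (SD, n = 2 lysates). Among the 4661 genes with a mean of at least 50 CPM this difference was -0.05. That mean holds RPFs as well as RNA, so a gene with less than 50 CPM of RNA entered only if it had more RPFs. With genes chosen by RNA alone, the medians of the eighth and the top decile were 0.10 and 0.28 in lysate 1. They were -0.01 and 0.06 in lysate 2. The slope of log2 RPF on log2 RNA was 0.92 in lysate 1 and 1.00 in lysate 2 by least squares, with R2 of 0.586 and 0.676. Estimated with the RNA of the other lysate, meant to remove the flattening caused by error in RNA, the slope was 1.08 and 0.99. In lysate 2 this slope was no higher than by least squares. With genes chosen by RNA alone it was 1.13 and 1.09, and with a mean of at least 50 CPM it was 0.79 and 0.65. A slope near 1 means that RPFs were in proportion to RNA, and whether it lay above or below 1 depended on how the genes were chosen. The cut at 50 CPM uses RPFs as well as RNA, so the slope in that set is not independent of the cut.

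Tested gene by gene, 6432 of 17057 genes (37.7%) had a ratio different from 1 at an adjusted p under 0.05 in edgeR's quasi-likelihood test with lysate as a block. RPFs were higher than RNA for 2862 genes (16.8%) and lower for 3570 (20.9%). More than 2-fold, they were higher for 1029 genes (6.03%) and lower for 2650 (15.5%), together 21.6% of the genes tested. The genes with higher RPFs held 42.8% and 45.3% of the RPF counts, and 23.3% and 26.6% of the RNA counts. The genes with lower RPFs held 10.5% and 8.62% of the RPF counts, and 31.2% and 26.0% of the RNA counts. The median fitted ratio was 1.83 among the 2862 genes and 0.383 among the 3570 genes. Differences in the higher direction were mostly small, with 57 genes past 4-fold, while 867 genes passed 4-fold in the lower direction. The filter takes part in these counts, as 1032 of the genes called lower had passed it through RNA alone. Among the 15009 genes with at least 5 CPM of both kinds of reads, 9 lay above 4-fold and 147 below it in both lysates.

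The balance of the calls depended on the genes and the scaling used. Among the 15009 genes with at least 5 CPM of both kinds of reads, RPFs were higher for 2739 and lower for 2538. Of the 1643 genes that passed through RNA alone, 1032 were called lower, and of the 405 that passed through RPFs alone, 123 were called higher. Higher calls made up 44.5% of all calls with total counts as library sizes, and 28.3% (1576 genes, against 3984 lower) when libraries were scaled to equal actin counts, which moved the median of all genes by -0.16 log2 units. Without lysate 1 there were 1462 higher and 2265 lower calls, and without lysate 2 there were 1534 higher and 1790 lower calls. In fits without a lysate, here and for the named genes, 0 hr has 1 lysate, which is assumed to vary like the treated lysates that give the spread.

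Abundant genes were more often called higher. Among genes with a mean of 5 to 10 CPM, 3.61% were called higher and 23.7% lower. At 20 to 50 CPM the shares were 15.4% and 21.8%, and at 200 CPM or more they were 52.0% and 15.4%. The median standard error of the fitted log2 ratio was 0.50 in the first of these sets and 0.15 in the last, so small differences were detectable only in abundant genes. The level used here holds RPFs as well as RNA and is thus not independent of the ratio.

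The 174 genes with GRMZM identifiers had few RPFs for their RNA. This is an older style of maize gene identifier that the table keeps beside 39324 genes with Zm00001d identifiers. The genes were listed as organelle-encoded when gene lists were set, which could not be checked for want of matching names. The group was picked out after its values were seen and is described with no test of its own. Together the 174 genes held 21466 and 19470 RPF counts, which is 0.656% and 0.334% of the RPF libraries, and 101601 and 195537 RNA counts, which is 5.03% and 3.70% of the RNAseq libraries. No GRMZM gene was among the 100 genes with the most RPFs, and 15 were among the 100 with the most RNA.

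The filter left 112 of the 174 genes, of which 59 had under 5 CPM of RPFs and so passed through RNA alone. The other 53 genes had at least 5 CPM of RPFs, and the fitted log2 ratio ranged from -7.05 to -1.58 among them, with a median of -3.32. All 53 were called lower by edgeR's quasi-likelihood test, where 20.9% of all genes tested were called lower. The 62 genes that did not pass the filter had 18 RPF counts and 1473 RNA counts in all, and 61 of them had more RNA counts than RPF counts. With GRMZM genes taken out of the library sizes, a setting added after the data were seen, 2540 genes were called higher and 3850 lower. Without them the correlation of the ratio between lysates was 0.745 over 16945 genes.

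Of these 7 loci, 4 are genes of the unfolded protein response, the set of ER genes that cells induce when unfolded proteins build up there. In untreated roots 3 of the 4 passed the test with RPFs above RNA, where 16.8% of all genes tested did. The share among all genes was higher at the levels of the 3 genes that passed, 34.0% at 50 to 200 CPM and 52.0% at 200 CPM or more. At 20 to 50 CPM, the level of ERDJ3a, the share was 15.4%. BIP2 (Zm00001d014993) encodes the binding protein BiP, the main Hsp70 chaperone of the ER. It had 611 and 580 CPM of RPFs, against 348 and 504 CPM of RNA, and the groups did not overlap. The share of all genes tested without overlap was not counted. The fitted log2 ratio was 0.50 ± 0.15 (SE, adjusted p = 0.0142, edgeR's quasi-likelihood test). Without lysate 1 the call was lost, as the log2 ratio was 0.20 with an adjusted p of 0.464 by edgeR, and it was also lost under scaling to actin, with an adjusted p of 0.278 by edgeR.

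PDI-2 (Zm00001d005866) is a protein disulfide isomerase, which forms and rearranges disulfide bonds in the ER. It had 64.5 and 75.3 CPM of RPFs, against 32.7 and 51.8 CPM of RNA. The groups did not overlap, for which the share among all genes tested was again not counted. The fitted log2 ratio was 0.72 ± 0.17 (SE, adjusted p = 0.00352 by edgeR). Without lysate 1 it was 0.54 with an adjusted p of 0.0848 by edgeR, and under scaling to actin the adjusted p was 0.0539 by edgeR.

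Derlin 1 (Zm00001d010368) had the highest ratio of the named loci. Derlins take part in moving misfolded proteins out of the ER for degradation, as known from yeast and mammals. There were 91.1 and 139 CPM of RPFs, against 45.1 and 26.9 CPM of RNA, a ratio of 2.02 in lysate 1 and 5.19 in lysate 2. The lysates differed in size and not in direction. The fitted log2 ratio of 1.75 ± 0.24 (SE, adjusted p = 3.34e-05 by edgeR) was higher than that of 99.2% of the genes tested.

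ERDJ3a (Zm00001d047726), whose relatives in mammals are cochaperones of BiP, missed the threshold by little. It had 55.3 and 51.6 CPM of RPFs, against 49.0 and 30.1 CPM of RNA, which is above RNA in both lysates. The fitted log2 ratio was 0.50 ± 0.19 (SE, adjusted p = 0.0502 by edgeR), and it moved to either side of the threshold with the setting. The adjusted p by edgeR was 0.0385 under TMM scaling, which aligns libraries on the genes that differ least, and 0.230 under scaling to actin. Without lysate 2 the log2 ratio was 0.17 with an adjusted p of 0.684 by edgeR, and without lysate 1 it was 0.78 with an adjusted p of 0.0428 by edgeR.

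The other 3 named loci did not pass the test. PAB2 (Zm00001d005276), a poly(A)-binding protein of mRNA tails, had 219 and 176 CPM of RPFs, against 281 and 201 CPM of RNA, and a log2 ratio of -0.28 ± 0.14 (SE, adjusted p = 0.141 by edgeR). Alpha tubulin 3 (Zm00001d013367), a subunit of microtubules, had 417 and 433 CPM of RPFs, against 415 and 503 CPM of RNA, and a log2 ratio of -0.11 ± 0.16 (SE, adjusted p = 0.623 by edgeR). The groups overlapped for both genes. Actin (Zm00001d013873), the cytoskeletal protein whose counts the study's methods use for scaling, had 29.3 and 52.3 CPM of RPFs, against 29.2 and 42.9 CPM of RNA, and a log2 ratio of 0.17 ± 0.22 (SE, adjusted p = 0.59 by edgeR). BIP2, alpha tubulin 3 and actin belong to families with similar copies. A read that matched as many as 20 places was given to 1 of them, so the counts of a single copy are uncertain.

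The ends of the distribution are given by identifier only, among called genes with at least 200 counts and 20 CPM. The highest ratio was that of Zm00001d038493, with 278 and 42.4 CPM of RPFs, against 47.5 and 3.41 CPM of RNA. Both levels were much higher in lysate 1, while the ratio was 5.85 in lysate 1 and 12.4 in lysate 2. Its log2 ratio was 2.93 ± 0.63 (SE), and 2.55 without lysate 2. Zm00001d020327 was steadier, with 141 and 121 CPM of RPFs, against 22.3 and 19.7 CPM of RNA. Its log2 ratio was 2.64 ± 0.26 (SE). Both genes were picked as extremes among called genes, so no test is given.

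At the low end, Zm00001d039537 had 0 and 1 RPF counts, against 126 and 137 RNA counts. Set against a floor of 3 counts per library, RPF CPM was at least 68.1-fold lower in lysate 1 and at least 50.4-fold lower in lysate 2. Zm00001d017076 had 7 and 9 RPF counts, against 2098 and 1217 RNA counts, a ratio of 0.00206 and 0.0067. Both genes passed the filter through RNA alone and were picked as extremes, so no test is given. The RNA of the second gene was abundant in both lysates and its RPFs were close to absent.

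The pattern of untreated roots was also found in TM-treated roots, which served here only to ask where untreated roots differ. Over the 17057 genes, the mean log2 ratio at 0 hr had a correlation of 0.881 with that at 6 hr and 0.878 with that at 12 hr. Single lysates of different time points gave 0.714 to 0.852 over 8 pairs, against 0.77 between the 2 untreated lysates. Of the 2862 genes with higher RPFs at 0 hr, 2568 (89.7%) had a ratio above 1 in all 4 treated lysates. Of the 3570 genes with lower RPFs, 3207 (89.8%) had a ratio below 1 in all 4. Among the genes not called at 0 hr, 40.6% kept to 1 side of 1, that of their fitted ratio at 0 hr, in all 4. All 174 GRMZM genes together held a share of RPFs that was 0.13 and 0.0902 of their share of RNA in untreated lysates. It was 0.132 and 0.0798 of it after 6 hr of TM, and 0.109 and 0.0661 after 12 hr of TM.

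No gene's ratio at 6 hr or at 12 hr differed from that at 0 hr past the threshold (0 genes, 0%, in each comparison by edgeR's quasi-likelihood test). Unadjusted p-values were under 0.05 for 547 genes in the 6 hr comparison, where the smallest adjusted p by edgeR was 0.881. In the 12 hr comparison they were under 0.05 for 934 genes, with a smallest adjusted p of 0.667 by edgeR. DESeq2 and limma voom also called 0 genes in each comparison. Without the filter on low counts, edgeR called 1 gene at 6 hr and 28 genes at 12 hr out of 31776. With 2 lysates per time point, a p that misses the threshold does not show that the ratios were alike.

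**Figure D5:**
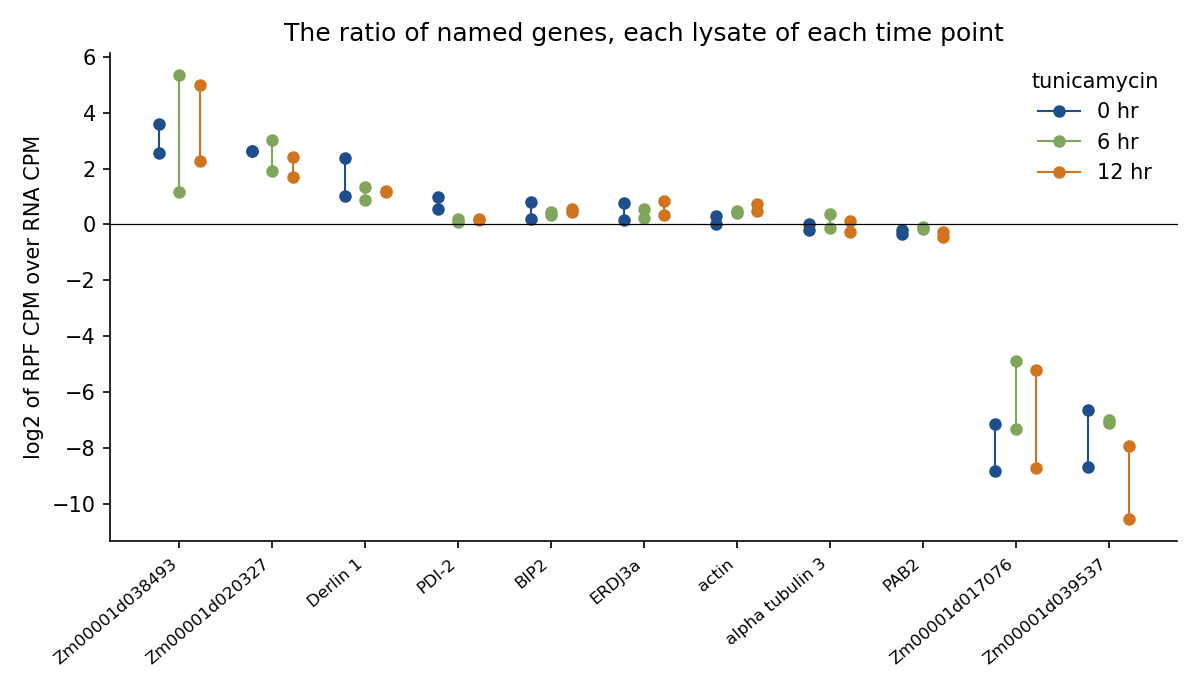
Log2 of RPF CPM over RNA CPM for the 7 loci named by the study and the 4 genes at the ends of the distribution, with 0.5 counts added. Each point is 1 lysate, a line joins the 2 lysates of a time point, and colors give hours of TM. The Derlin 1 lysates lie apart at 0 hr, and PDI-2 lies higher at 0 hr than at 6 and 12 hr, a difference that did not pass the test.

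The PDI-2 (Zm00001d005866) ratio was 1.97 and 1.45 in untreated lysates, 1.05 and 1.13 after 6 hr of TM, and 1.13 and 1.11 after 12 hr of TM. The untreated lysates lay above all 4 treated lysates, and the share of all genes tested that separated in this way was not counted. The log2 difference was -0.59 ± 0.23 for 6 hr minus 0 hr (SE, unadjusted p = 0.0197 and adjusted p = 1.00 by edgeR), and -0.56 ± 0.23 for 12 hr minus 0 hr (SE, unadjusted p = 0.0262 and adjusted p = 0.90 by edgeR). The other 3 genes of the unfolded protein response did not pass either. The log2 difference for 6 hr and for 12 hr minus 0 hr was -0.12 and 0.001 for BIP2 (Zm00001d014993), -0.65 and -0.57 for Derlin 1 (Zm00001d010368), and -0.11 and 0.08 for ERDJ3a (Zm00001d047726).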

How the data were processed

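The authors' deposited raw counts per gene were used. According to the study's methods and the submitters' processing notes, reads were checked with FastQC and trimmed with cutadapt 1.16. RPFs of 27 to 32 nt and RNA fragments of 25 to 40 nt were kept, and reads on noncoding RNA were removed. The rest were aligned with Bowtie 1.2 to coding sequences of B73 RefGen_v4, allowing up to 20 places and reporting 1, and counted with SAMtools. RNAseq was made from rRNA-depleted total RNA. The length limits differ between library types, and their effect on the ratio was not tested. There were 0 unused columns.

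Here CPM used column totals. Genes with a mean of at least 5 CPM over the 4 untreated libraries were tested with edgeR 4.0.16 in R 4.3.3 (quasi-likelihood, two-sided, Benjamini-Hochberg over 17057 genes). All 12 libraries entered 1 fit with lysate as a block and library type at each time point, which left 3 residual degrees of freedom per gene. The pairing comes from the shared lysate. It was checked by the correlation of RPF and RNA deviations between the untreated lysates (0.394 over 17057 genes). Actin and tubulin scaling, TMM, other filters, DESeq2 1.42.0 and limma voom 3.58.1 were alternatives. The scripts were tested on simulated data.

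Named genes were the 7 loci to which the paper gives a complete identifier (PDI-1, whose printed identifier is a digit short, was left out) and the 2 highest and 2 lowest fitted ratios among called genes with at least 200 counts, 20 CPM and both lysates on the same side. The rule also asked for genes with the most counts, which are given without identifiers. Members and lists were chosen with earlier results of these data known. Lists by gene product, marker checks and lengths could not be run for want of matching names.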

Additional observations from a re-analysis of the deposited data

How the results depend on the processing

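Without the replicate block, 1932 genes were called higher and 2665 lower, against 2862 and 3570 with lysate as the block. The BIP2 call by edgeR was then lost (adjusted p = 0.186). Scaling to actin gave 1576 higher calls. With a mean of at least 20 CPM there were 2529 higher and 1822 lower calls among 9454 genes, so that 58.1% of calls were higher, against 44.5%. Without the filter on low counts, 1 gene differed at 6 hr and 28 at 12 hr. Leaving out 1 untreated lysate gave 1462 to 1534 higher and 1790 to 2265 lower calls, with fewer samples. For alpha tubulin 3 (Zm00001d013367), which was not called, leaving out 1 untreated lysate gave a log2 ratio from -0.22 to 0.0091, positive without replicate 2. Some alternatives (edgeR, DESeq2 and limma voom) kept both untreated lysates. Over these the adjusted p ranged from 0.000944 to 0.278 for BIP2, 0.00108 to 0.0539 for PDI-2 and 0.0259 to 0.230 for ERDJ3a. Derlin 1 passed under all of them. Scaling to alpha tubulin 3 moved the median of all genes by 0.11 log2 units. The other counts of calls stayed within 1.5 times.

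The SD of the log2 ratio, averaged over both lysates, became 1.08 with 2 counts added, 0.97 at 50 CPM or more, 1.46 at 1 CPM or more and 1.24 with crossed lysates. The slope estimated with the other lysate, 1.03 on average, became 0.72 at 50 CPM or more, 1.11 at 1 CPM or more and 1.11 with genes chosen by RNA. The least squares slope became 0.71 and 1.03 at 50 CPM or more and with genes chosen by RNA. The correlation between lysates, 0.77, became 0.763 with 0.1 counts added, 0.776 with 2 counts added, 0.916 at 50 CPM or more, 0.614 at 1 CPM or more and 0.547 with crossed lysates. The difference between the top decile and the third, 0.48, became -0.05 at 50 CPM or more and 0.72 at 1 CPM or more. The GRMZM median log2 ratio over 112 genes was -4.79, in which the filter takes part, as 59 of them passed through RNA alone. The other 53 had a fitted median of -3.32. The value of -4.79 became -4.46 with 2 counts added and -4.47 at 50 CPM or more. The causes of these shifts were not tested. Bins by CPM per kb of coding length were not run. Depth limits the precision of genes near 5 CPM, where the median standard error was 0.50 log2 units at 5 to 10 CPM.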

Other observations

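Among the 17057 genes tested, Zm00001d042375 had RPFs and no RNA read in untreated roots. It had 57 and 59 RPF counts, against 0 and 0 RNA counts, at 0 hr. At 6 hr there were 31 and 95 RPF counts, against 10 and 0 RNA counts, and at 12 hr there were 50 and 148 RPF counts, against 0 and 3 RNA counts. In the other direction, 14 tested genes had no RPF count in either untreated lysate. These genes were chosen after their values were seen.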
